A study of Mus musculus with 8 samples.

Results

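The genes described here are 10 messages that the literature reports as targets of miR-140-5p: Dnpep, Hdac4, Nfe2l2, Loxl3, Tgfbr1, Vegfa, Cxcl12, Smad3, Pdgfra and Sp1. They were taken by gene symbol from the authors' deposited table, which lists 18501 genes. All 10 were found there, and all 10 were among the 14359 genes with enough reads to be tested. RNA came from chondrocytes of the rib cartilage of CD1 mice aged 10 days, in 4 groups of 2 libraries. CG mutants carry a mutation in the seed region of miR-140-3p, and CG wild types are their controls. The mutants of the second line, written C>T in the labels and CT here, carry a C>T base change and have wild types of their own. The series' design text describes both kinds of mutant as overexpressing the 5p arm, and the amount of either arm was not analysed here. The labels give neither the position of the C>T change nor whether the mutants were homozygous. Cells were freed with collagenase II overnight, filtered and plated before TRIzol extraction, so the RNA is that of plated cells and not of cartilage taken directly.

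MicroRNAs guide Argonaute proteins to messages that pair with their seed, the short stretch behind the first base, and such messages are usually translated less and degraded faster. miR-140 is a microRNA of cartilage, made from an intron of Wwp2, a ubiquitin ligase gene, and both strands of its hairpin can be loaded. Mice without it have short limb bones and early damage to articular cartilage, and Dnpep, an aspartyl aminopeptidase, was described as a target from growth plate chondrocytes of such mice. The other messages were reported in different cells and concern TGF-beta signalling (Tgfbr1, Smad3), secreted factors and a receptor (Vegfa, Cxcl12, Pdgfra), regulators of transcription (Hdac4, Nfe2l2, Sp1) and a collagen and elastin cross-linking enzyme (Loxl3).

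The sequences that bear on these genes are matches to the 5p seed in the 3′ untranslated regions (UTRs). The CG mutation lies in the seed of the other arm, whose mature sequence in RefSeq (GRCm38.p6) is printed here, with the seed, bases 2 to 8, in capitals.
mmu-miR-140-3p: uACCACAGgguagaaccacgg
The motif searched for the 5p arm was AACCACT, the reverse complement of its seed, on the message strand of the longest annotated UTR of each gene in GENCODE M21 (GRCm38). It was found in 4 of the 10 genes, namely Hdac4, Tgfbr1, Vegfa and Pdgfra. Among the 17420 genes of the table with a UTR, 1779 (10.2%) held it. The matches are printed with the bases before and after them, 5′ to 3′, and the matching bases are in capitals.
Hdac4, first match: cacagtctccgtgtaAACCACTc
Hdac4, second match: tgaatgtggacttgtAACCACTc
Tgfbr1, first match: tctcagaggactctgAACCACTa
Tgfbr1, second match: acccagatgtgcttgAACCACTg
Vegfa: tgatcagaccattgaAACCACTa
Pdgfra, first match: ggataaccttaagaaAACCACTt
Pdgfra, second match: atgaagtacatgcaaAACCACTt
Nfe2l2, shorter match: attgaaaactaaccagACCACTa
In Vegfa and in the first match of Tgfbr1 an A follows the motif, which extends the match to 8 bases. Such a match was present in 335 genes (1.92%). The Nfe2l2 UTR holds only the shorter motif ACCACT, which lies within the 7-base motif, followed by an A.

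Position and UTR length differed among the matched genes. In Hdac4 the matches span bases 443 to 449 and 1935 to 1941 behind the stop codon, in a UTR of 4568 bases. Those of Tgfbr1 span bases 389 to 395 and 788 to 794 of 4154, and those of Pdgfra bases 57 to 63 and 502 to 508 of 3115. The match of Vegfa lies at bases 1000 to 1006 of 1865, and the shorter match of Nfe2l2 at bases 331 to 336 of 448. Among annotated transcripts with a UTR, the 7-base motif was in 2 of 2 for Hdac4, 2 of 3 for Tgfbr1, 2 of 3 for Vegfa and 2 of 4 for Pdgfra. Long UTRs hold more of any motif. The share of genes with a UTR of similar length (0.8 to 1.25 times as long) that also held the 7-base motif was 26.8% for Hdac4, 25.1% for Tgfbr1, 20.7% for Pdgfra and 13.4% for Vegfa. Dnpep, Nfe2l2, Loxl3, Cxcl12, Smad3 and Sp1 did not hold the 7-base motif in any annotated UTR. For these genes the share among UTRs of similar length was 32.5% for Sp1, 31.1% for Cxcl12 and 21.7% for Smad3. It was 11.9% for Loxl3, 9.18% for Dnpep and 3.45% for Nfe2l2. The 6-base motif occurred in all 10 genes and in 28.3% of all genes with a UTR. Among genes with UTRs of similar length that share ran from 12.1% for Nfe2l2 to 71.9% for Sp1. The motif of the 3p arm, CTGTGGT, was present in 17.6% of genes and in none of the 10. Among genes with UTRs of similar length its share ran from 6.46% for Nfe2l2 to 49.9% for Sp1. The 6-base form of the 3p motif, TGTGGT, was present in Hdac4, Tgfbr1, Vegfa, Cxcl12 and Pdgfra, and in 39.7% of all genes with a UTR. An A followed it in a match of Cxcl12 and in a match of Pdgfra. A match is a description of letters and not of binding, and these letters come from an annotation of another build than the one the submitters name.

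**Figure D1:**
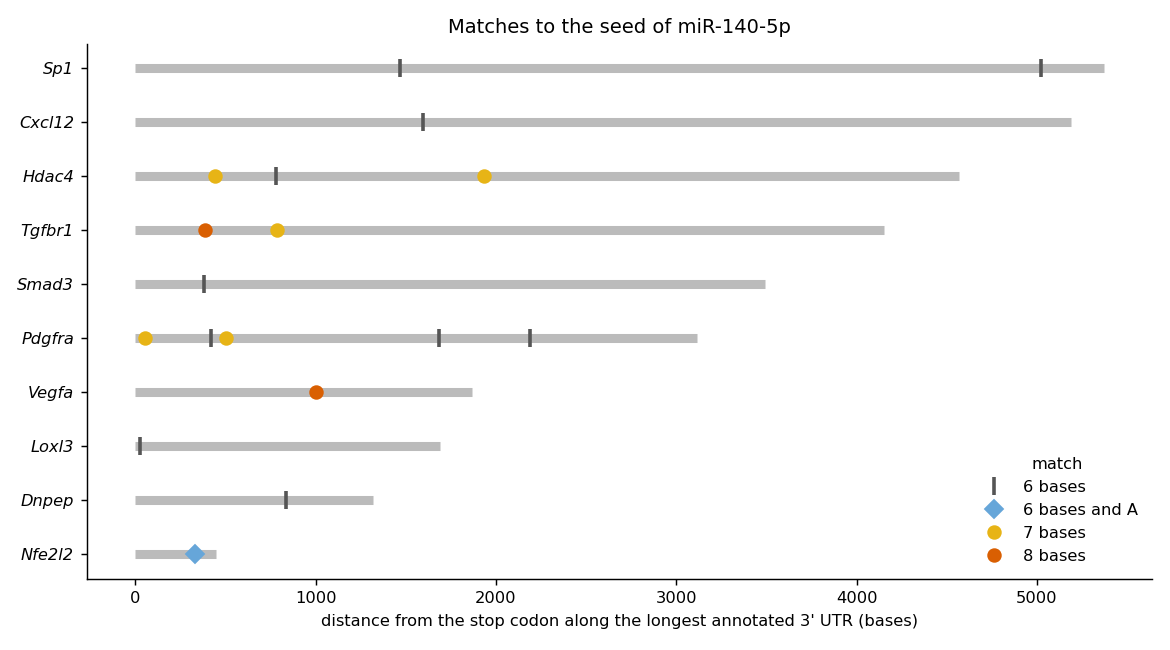
Each horizontal line is the longest annotated 3′ UTR of one gene, drawn to scale in bases after the stop codon, and the marks are matches to the 5p seed motif, by match type. Tgfbr1, Pdgfra and Hdac4 hold 2 matches of 7 or 8 bases each and Vegfa holds 1. The other 6 genes hold only 6-base matches, and that of Nfe2l2, marked separately, is followed by an A.

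Library totals ran from 26536844 to 28678637 estimated counts, and levels below are in CPM, the count relative to a library size scaled by the trimmed mean of M values (TMM). Whether a group's libraries stem from separate animals is not in the labels. Counts of Ddx3y, a Y-linked gene, differed widely within 3 groups (2 and 2511 for the CG wild types, 3669 and 10 for the CT wild types, 3512 and 30 for the CT mutants), and for the CG mutants they were 2231 and 2360. In those 3 groups the 2 libraries therefore cannot come from the same single animal. CG wild type replicate 1 hardly held Ddx3y, while both CG mutants did, and the part of sex in the values below was not tested. All p-values rest on the spread between the libraries at hand, part of which may be technical. Chondrocyte markers were abundant in every library, and all 14 of 14 were found. Their summed level was 36050 and 35010 CPM in CG wild types and 57640 and 33950 in CG mutants. CT wild types had 65790 and 54120 CPM of them and CT mutants 44850 and 44000. CG mutant replicate 1 and CT wild type replicate 1 therefore stood apart from their partners. Both CT wild types also lay above both CT mutants. Col2a1, among these markers, gave 25753 and 24959 CPM in CG wild types and 41094 and 24140 CPM in CG mutants. In the CT line Col2a1 gave 50163 and 40571 CPM in wild types and 31648 and 30879 CPM in mutants. Its CT log2 fold change was -0.54 ± 0.27 (SE; interval -1.15 to 0.08), with an adjusted p of 0.958 in edgeR's test. Erythroid markers summed to 2.95 to 16.8 CPM in the CG line and to 999.1 to 2691 CPM in the CT line. For Wwp2, the host gene of miR-140, CG wild types held 496.6 and 489.7 CPM and CG mutants 1043 and 601.1 CPM. Its levels in the CT line were 243.5 and 295.4 CPM in wild types and 206.1 and 320.7 in mutants. In bulk RNA, fewer cells of a type and less RNA per cell cannot be told apart, which holds for every gene below.

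Levels of different genes can be compared on the deposited FPKM scale, which divides by gene length and library size. In CG wild types Vegfa stood at 107 ± 3.0 FPKM (SD, n = 2), Loxl3 at 96.0 ± 4.2 and Nfe2l2 at 88.1 ± 1.4. Sp1 and Pdgfra followed at 15.5 ± 0.82 and 15.2 ± 3.3 FPKM, then Tgfbr1 at 10.2 ± 0.29 and Dnpep at 10.1 ± 1.1. Smad3 stood at 6.52 ± 0.71, Hdac4 at 6.24 ± 0.16 and Cxcl12, the lowest, at 4.37 ± 1.0 FPKM. Neighbours whose libraries overlapped in this order were Sp1 with Pdgfra, Tgfbr1 with Dnpep, and Smad3 with Hdac4. In CT wild types Vegfa was again first, at 160 ± 48 FPKM (SD, n = 2), and Cxcl12 last, at 2.36 ± 0.78.

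**Figure D2:**
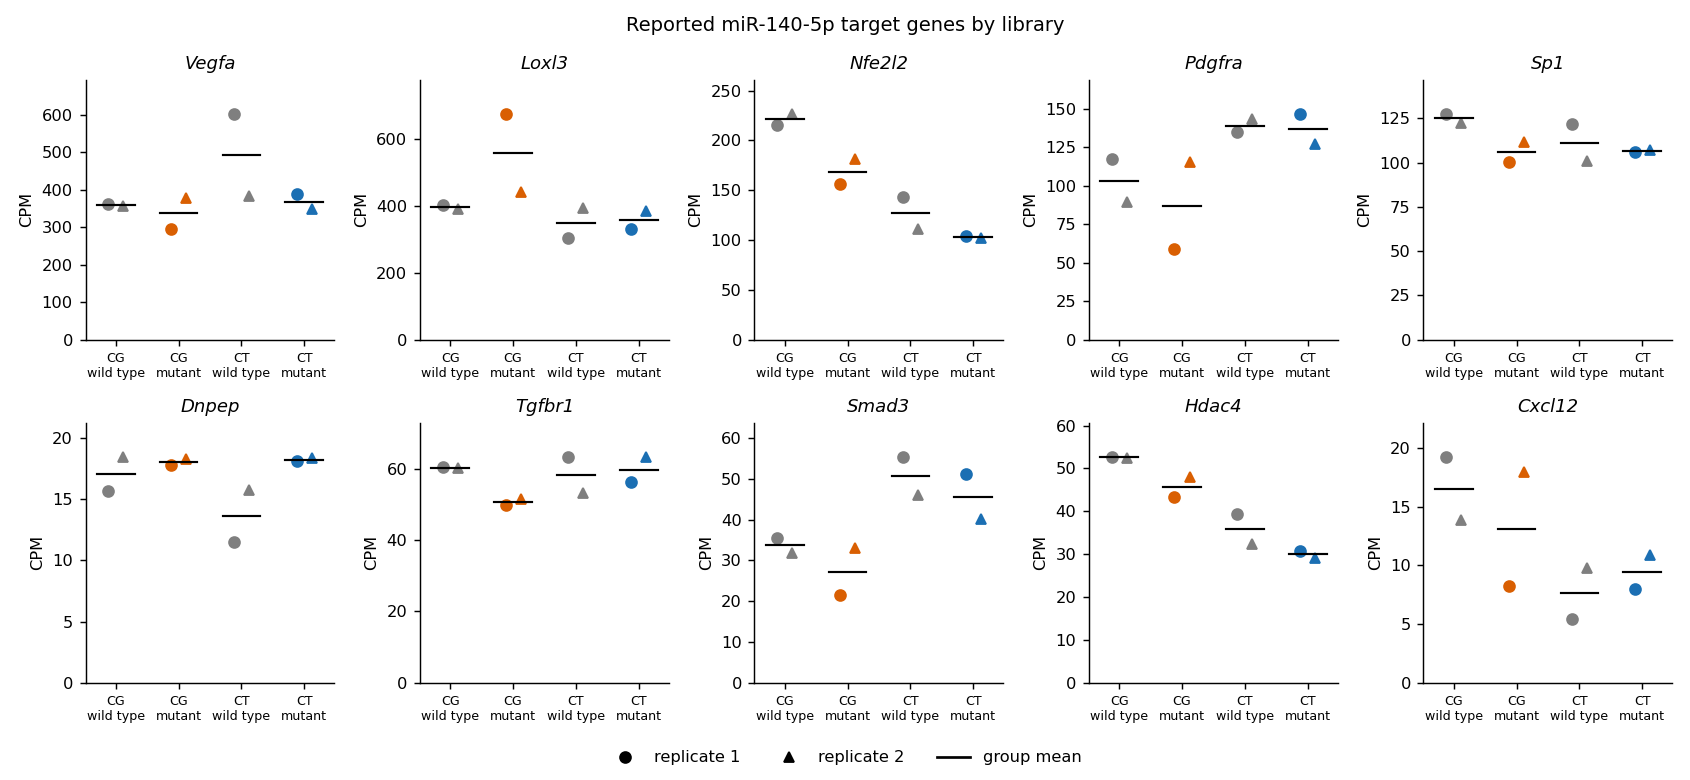
Each panel shows one gene, with CPM on a linear axis that starts at 0 and the 4 groups along the horizontal axis; points are the 8 libraries and horizontal bars the group means of 2. Nfe2l2 and Hdac4 are lower in all 4 CT libraries than in any CG library, and their mutants lie below their own wild types in both lines.

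None of the 10 genes passed the test of CG mutants against CG wild types by edgeR's quasi-likelihood test with Benjamini-Hochberg adjustment over all genes, and none by DESeq2 or by limma on FPKM. Over all genes, 1 of 14359 was called (0.00696%). At an unadjusted p under 0.05 there were 3 of the 10, Nfe2l2, Loxl3 and Tgfbr1, beside 11.4% of all genes. Both mutants lay below both wild types for Hdac4, Nfe2l2, Tgfbr1 and Sp1, which is 4 of 10 beside 22.5% of all genes, and above both for Loxl3 alone, beside 23.2%. The fitted log2 fold change was below 0 for 8 of the 10 genes and for 49.4% of all genes. Its median over the 10 was -0.24, beside 0.0029 over all genes tested. Leaving out CG mutant replicate 1, the library rich in chondrocyte markers, left 5 of 10 below 0 and a median of 0.02. Without CG mutant replicate 2 the median was -0.30 and 8 were below 0.

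The CT comparison gave no call among the 10 by the same 3 tools, beside 1 call over all genes (0.00696%). The smallest adjusted p in edgeR's test was 0.958. Dnpep alone had an unadjusted p under 0.05, beside 5.11% of all genes. Both mutants lay below both wild types for Hdac4 and Nfe2l2, beside 16.3% of all genes, and above both for Dnpep, beside 17.2%. The log2 fold change was below 0 for 6 of the 10 and for 50.6% of all genes, and its median was -0.04, beside -0.0026 over all genes. That median lay between -0.14 and -0.05 when each CT library was left out in turn.

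**Figure D3:**
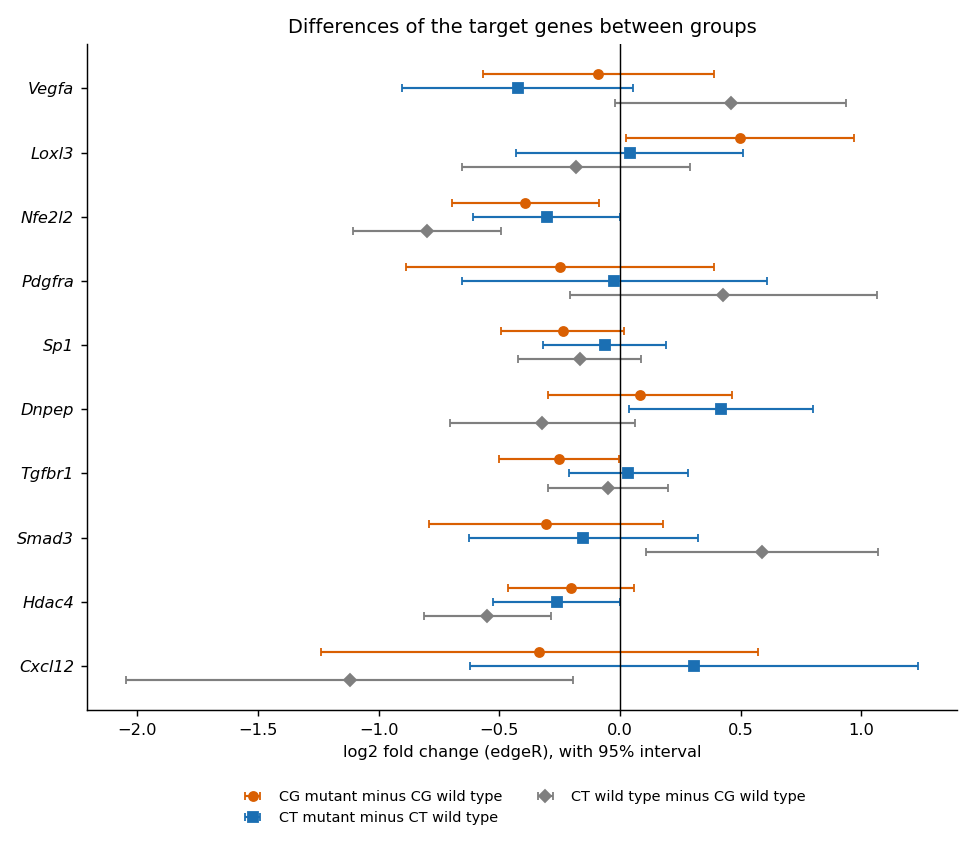
Points are log2 fold changes for each gene, mutant against own wild type in each line and, as grey diamonds, CT against CG wild types. Bars are 95% confidence intervals from edgeR's fit of 8 libraries. The CG mutant interval lies wholly below 0 for Nfe2l2 and Tgfbr1 and wholly above 0 for Loxl3. The CT mutant interval lies wholly above 0 for Dnpep. In neither mutant comparison did any of the 10 genes pass adjustment over 14359 genes. Between the wild types Nfe2l2 and Hdac4 passed, both lower in CT.

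The TGF-beta genes are a receptor and the factor it activates. Tgfbr1 encodes the type I receptor kinase, and its UTR holds the 8-base and the 7-base match printed above. CG wild types held 60.6 and 60.1 CPM of Tgfbr1 and CG mutants 49.8 and 51.5 CPM. The groups did not overlap, and the wild types differed from each other by less than 1 CPM. Tgfbr1 thus had a log2 fold change of -0.25 ± 0.11 (SE), with a 95% interval of -0.50 to -0.0032, an unadjusted p of 0.0478 in edgeR's fit and an adjusted p of 0.431. It stayed between -0.27 and -0.23 when each library was left out in turn. CT wild types held 63.4 and 53.3 CPM and CT mutants 56.2 and 63.3 CPM. These groups overlapped, and the log2 fold change was 0.03 ± 0.11 (SE). The difference between the lines in this effect was -0.29, with an interval of -0.64 to 0.06 and an adjusted p of 0.967 in edgeR's test, so it was not shown to differ between them.

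Smad3, which carries the receptor's signal to the nucleus, has no 7-base match. Its level was 35.6 and 31.8 CPM in the wild types of the CG line and 21.5 and 33.0 CPM in the mutants, with overlap. Its log2 fold change was -0.31 ± 0.21 (SE; interval -0.79 to 0.18), and -0.03 without CG mutant replicate 1. The CT values were 55.4 and 46.0 CPM without and 51.2 and 40.1 CPM with the mutation. Here too the groups overlapped, and the log2 fold change was -0.15 ± 0.21 (SE; interval -0.63 to 0.32). All 4 CT libraries lay above all 4 CG libraries.

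Of the secreted factors, Vegfa, the growth factor that draws vessels into cartilage and a product of hypertrophic chondrocytes, has 1 match of 8 bases. Its level was 361.4 and 356.8 CPM in CG wild types and 295.8 and 378.5 CPM in CG mutants. The CG wild types lay between the mutants, and the log2 fold change was -0.09 ± 0.21 (SE; interval -0.57 to 0.39). In CT wild types it was 603.9 and 382.8 CPM, and in CT mutants 387.9 and 347.7 CPM. The first CT wild type stood apart, and its partner lay below one of the mutants. Its log2 fold change of -0.42 ± 0.21 (SE; interval -0.90 to 0.05) came to -0.06 when that wild type was left out. In that library the chondrocyte markers also summed highest, and the part of this in the Vegfa value was not tested.

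Cxcl12, a chemokine of stromal cells, was the least abundant of the 10 and the most scattered. CG wild types held 19.3 and 13.8 CPM and CG mutants 8.27 and 18.0 CPM. In the other line the wild types held 5.47 and 9.76 CPM and the mutants 7.98 and 10.9 CPM. Both lines overlapped between mutant and wild type. Fitted log2 fold changes were -0.33 ± 0.39 (SE; interval -1.24 to 0.57) in the CG line and 0.31 ± 0.40 (SE; interval -0.62 to 1.23) in the CT line. Each changed sign when 1 library was left out, to 0.12 without CG mutant replicate 1 and to -0.05 without CT wild type replicate 1.

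Pdgfra, a receptor of platelet-derived growth factors that marks mesenchymal and perichondrial cells, has 2 matches of 7 bases. Its CG wild types held 117.4 and 89.4 CPM and its CG mutants 58.8 and 115.2 CPM. The mutants lay far apart from each other, the first below and the second between the wild types. Pdgfra had a log2 fold change of -0.25 ± 0.28 (SE; interval -0.89 to 0.39), and 0.16 without CG mutant replicate 1. In that library the 10 fibroblast and perichondrium markers summed to 3213 CPM, beside 4125 CPM in the other CG mutant and 4156 and 4087 CPM in the wild types. Their part in the Pdgfra value was not tested. The CT line gave 135.1 and 143.1 CPM in wild types and 146.9 and 126.9 CPM in mutants. These overlapped, and the log2 fold change was -0.02 ± 0.27 (SE; interval -0.66 to 0.61).

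Among the regulators of transcription, Hdac4 encodes a class IIa histone deacetylase that restrains MEF2 and RUNX factors and so holds back chondrocyte hypertrophy. It has 2 matches of 7 bases. CG wild types held 52.7 and 52.4 CPM of Hdac4 and CG mutants 43.3 and 48.0 CPM. The CT wild types held 39.4 and 32.4 CPM and their mutants 30.7 and 29.1 CPM. Both mutants lay below both wild types in each line, though the margin in the CT line was under 2 CPM. Hdac4 had a log2 fold change of -0.20 ± 0.11 (SE; interval -0.47 to 0.06) in the CG line and -0.26 ± 0.11 (SE; interval -0.53 to 0.0010) in the CT line. The adjusted p of edgeR's test was 0.541 and 0.958, respectively. The CT value came to -0.12 without CT wild type replicate 1 and the CG value to -0.13 without CG mutant replicate 1.

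Nfe2l2 encodes NRF2, the factor that drives antioxidant genes when it is released from KEAP1, and has the shorter match. CG wild types held 215.7 and 226.9 CPM and CG mutants 156.0 and 181.1 CPM. Its CT wild types held 143.2 and 110.9 CPM and its CT mutants 103.9 and 101.7 CPM. In both lines the mutants lay below both wild types. The CG log2 fold change was -0.39 ± 0.13 (SE), with an interval of -0.70 to -0.09, an unadjusted p of 0.0177 and an adjusted p of 0.344 in edgeR's fit. The CT value was -0.30 ± 0.13 (SE; interval -0.61 to 0.00079). The CG value kept its sign at -0.50 to -0.29 when each library was left out, and the CT value ran from -0.48 to -0.11, the latter without CT wild type replicate 1. The lines differed in this effect by -0.09 (interval -0.52 to 0.34).

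Sp1, a zinc finger factor that binds GC-rich promoters, has no 7-base match. Its level was 127.7 and 122.4 CPM in CG wild types and 100.3 and 112.0 CPM in CG mutants. The CG mutants lay below the wild types, with a log2 fold change of -0.24 ± 0.11 (SE; interval -0.49 to 0.02) and an adjusted p of 0.464 in edgeR's test. CT wild types held 122.0 and 100.8 CPM and CT mutants 105.9 and 107.4 CPM. The CT mutants lay between the wild types, with a log2 fold change of -0.06 ± 0.11 (SE; interval -0.32 to 0.19).

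With all 8 libraries both enzyme genes had log2 fold changes above 0 in each line. Dnpep, the aspartyl aminopeptidase, gave 15.6 and 18.5 CPM for CG wild types and 17.8 and 18.3 CPM for CG mutants, which lay between the wild types. Its log2 fold change there was 0.08 ± 0.17 (SE; interval -0.30 to 0.46), or -0.04 when the first of these wild types was left out. CT wild types held 11.5 and 15.8 CPM of Dnpep and CT mutants 18.1 and 18.4 CPM. Here both mutants lay above both wild types, and the log2 fold change was 0.42 ± 0.17 (SE; interval 0.04 to 0.80), with an unadjusted p of 0.0351 and an adjusted p of 0.958 in edgeR's fit. With CT wild type replicate 2 as the only control it was 0.21, and with replicate 1 as the only control 0.67.

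Loxl3, a lysyl oxidase that cross-links fibrillar collagen and elastin, gave 402.2 and 389.9 CPM for CG wild types and 676.1 and 440.9 CPM for CG mutants. Both mutants lay above both wild types, and the first stood far above the second. Loxl3 had a log2 fold change of 0.50 ± 0.20 (SE; interval 0.02 to 0.97), with an unadjusted p of 0.0416 and an adjusted p of 0.420 in edgeR's fit. It was 0.15 without CG mutant replicate 1. With that library as the only mutant it was 0.78. For the CT line the values were 305.3 and 392.5 CPM in wild types and 331.5 and 385.6 CPM in mutants. The CT mutants lay between their wild types, at a log2 fold change of 0.04 ± 0.20 (SE; interval -0.43 to 0.51) that was -0.13 without CT wild type replicate 1. Exons of Loxl3 overlap those of Htra2, a mitochondrial protease gene on the opposite strand, and no source used here says whether counting used strand. Hdac4 and Pdgfra also overlap non-coding genes of the other strand in GENCODE M21. Htra2 itself had a log2 fold change of 0.12 ± 0.12 (SE) in the CG line and -0.14 ± 0.12 (SE) in the CT line.

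Across the lines, 6 of the 10 genes had a log2 fold change below 0 in both, beside 29.4% of all genes. They were Hdac4, Nfe2l2, Vegfa, Smad3, Pdgfra and Sp1. On log2(FPKM + 1) Pdgfra was above 0 in the CT line (0.0129), beside a median of 0.0257 over all genes tested. Leaving out CG mutant replicate 1 put Vegfa (0.08) and Pdgfra (0.16) above 0 in the CG line, which leaves 4 genes. In the CT line Sp1 was above 0 without wild type replicate 1 (0.08), Smad3 without mutant replicate 2 (0.01), and Pdgfra without mutant replicate 2 (0.08) or wild type replicate 2 (0.02). Hdac4 and Nfe2l2 stayed below 0 in both lines with each library left out. Only Hdac4 and Nfe2l2 had both mutants below both wild types in each line, beside 5.06% of all genes. No gene of the 10 differed between the lines in the mutant effect by edgeR's test, beside 3 genes of all tested (0.0209%), and none of the 10 had an unadjusted p under 0.05 there, beside 4.78%. DESeq2 and limma called none of the 10 for this difference. The narrowest of these 10 intervals, that of Tgfbr1, ran from -0.64 to 0.06.

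**Figure D4:**
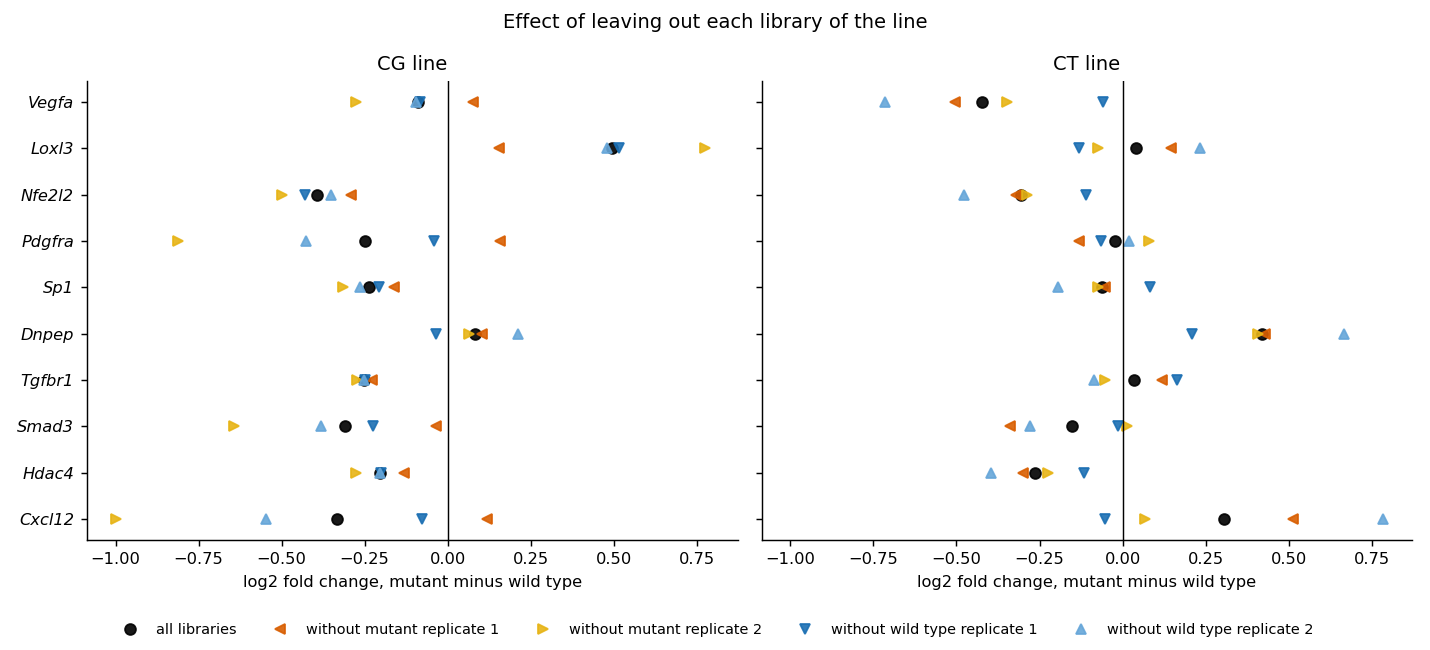
For each gene the black point is the log2 fold change, mutant against own wild type, with all 8 libraries, and the triangles are the same value with each library of that line left out in turn; both lines share 1 scale. Tgfbr1 moved least in the CG line (-0.27 to -0.23), Cxcl12 and Pdgfra crossed 0 in both lines, and Vegfa in the CT line ran from -0.72 to -0.06.

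Genes with and without the 7-base motif had overlapping values in the CG line. The 4 genes that held it lay between -0.25 and -0.09. The 6 others comprised Nfe2l2, Cxcl12, Smad3 and Sp1, between -0.39 and -0.24, and Dnpep and Loxl3, at 0.08 and 0.50. Nfe2l2, the lowest of them, holds the 6-base motif followed by an A, a match counted here as shorter. For CT mutants the matched genes ran from -0.42 (Vegfa) to 0.03 (Tgfbr1), and the others from -0.30 (Nfe2l2) to 0.42 (Dnpep).

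The same motif over the whole table gave small shifts. Of the genes tested, 1551 held the 7-base 5p motif. Their median log2 fold change was -0.02 in the CG line, with 53.6% below 0. It ran from -0.033 to -0.011 when each library was left out, the latter without CG mutant replicate 1. The 288 genes with the 8-base match had a median of -0.05 there, with 57.6% below 0. All 13873 tested genes with a UTR had a median of 0.0032 and 49.3% below 0. The shares below 0 in the CT line were 52.1% for the 7-base match, 52.8% for the 8-base match and 50.4% for all genes with a UTR. The 2673 genes with the 3p motif had 49.1% below 0 in the CG line and 46.6% in the CT line. These shares are descriptions over genes, which are not replicates. The CT median of the genes with the 7-base 5p motif was -0.0081, and it was 0.02 without CT wild type replicate 1. On log2(FPKM + 1) it was 0.0217, beside 0.0257 over all genes tested.

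The wild types of the lines differed widely, in 33.7% of all genes tested (16.8% lower in CT). Line, litter and handling cannot be told apart in this comparison. Of the 10 genes Nfe2l2 and Hdac4 were lower in CT than in CG wild types. For Nfe2l2 the log2 fold change was -0.80 ± 0.13 (SE), a ratio of 0.574, with an adjusted p of 0.00378 in edgeR's test. For Hdac4 it was -0.55 ± 0.11 (SE), a ratio of 0.683, with an adjusted p of 0.00900 in edgeR's test. The adjusted p of Hdac4 was 0.0522 without CG wild type replicate 2 and 0.0698 by limma on log2(FPKM + 1). All 4 CT libraries lay below all 4 CG libraries for these 2 genes, beside 23.1% of all genes, and above them for Smad3 and Pdgfra, beside 23.7%. The lines overlapped for the other 6.

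Other genes of the 10 gave larger or smaller values in that comparison without passing edgeR's test. Between the wild types alone, both CT libraries lay below both CG libraries for 4 of the 10 (35.5% of all genes), Hdac4, Nfe2l2, Cxcl12 and Sp1. Both lay above for 3 of the 10 (35.7%), Vegfa, Smad3 and Pdgfra. Cxcl12 had a log2 fold change of -1.12 ± 0.40 (SE) at an adjusted p of 0.0637 in edgeR's test, and Smad3 one of 0.59 ± 0.21 (SE) at 0.0613. Both passed in DESeq2, at adjusted p-values of 0.0101 and 0.0240, in a fit that called 4474 of all 14359 genes. Vegfa stood at 0.46 ± 0.21 (SE) and Pdgfra at 0.43 ± 0.28 (SE), with adjusted p-values of 0.124 and 0.261 in edgeR's test. The authors' deposited table, which lists 3 of the 10, gives q-values for this comparison of 0.0029 for Smad3, 0.0271 for Pdgfra and 0.0477 for Vegfa. For both mutant comparisons the q-values of these 3 genes in the authors' deposited table are 0.996 or more. Each group of wild types enters both this comparison and that of its own mutants.

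The partners of these genes in their pathways were described from lists of 85 genes tested. The counts below 0 in each list stand beside 49.4% of all genes in the CG line and 50.6% in the CT line. edgeR called none of the 85 in either line. At an unadjusted p under 0.05 there were 19 of the 85 in the CG line, beside 11.4% of all genes, and 5 in the CT line, beside 5.11%. limma called none of the 85. DESeq2 called 10 in the CG line, Sox4, Tgfb1, Gclc, Gclm, Srxn1, Slc7a11, Gsr, Pdgfrl, Nrp2 and Loxl2, among its 216 calls over all 14359 genes. Its 20 calls in the CT line included none of the 85. Without CG mutant replicate 2 edgeR called 15 of the lists' genes among 522 calls in all, and without CG mutant replicate 1 it called Gsr alone, among 4 calls in all.

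The list around Nfe2l2 holds 14 regulators and targets of NRF2, none of them called by edgeR. In the CG line 12 of the 14 had a log2 fold change below 0, beside 49.4% of all genes, and for 10 both mutants lay below both wild types, beside 22.5%. Their median was -0.53. Srxn1, which repairs oxidised peroxiredoxins, stood at -1.55 ± 0.36 (SE; adjusted p 0.242 in edgeR's fit). Gsr, glutathione reductase, went the other way at 1.22 ± 0.20 (SE; adjusted p 0.145 in edgeR's fit). CT mutants had 13 of 14 below 0, beside 50.6% of all genes, with a median of -0.29. For 7 of the 14 both CT mutants lay below both wild types, beside 16.3%. Slc7a11, the cystine transporter, stood there at -0.70 ± 0.27 (SE), and Mafk, a small MAF partner of NRF2, at -0.41 ± 0.22 (SE). The CG median was -0.35 without mutant replicate 1 and -0.79 without mutant replicate 2, and the CT median -0.18 without wild type replicate 1 and -0.40 without wild type replicate 2.

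The 4 other lysyl oxidases had log2 fold changes above 0 in CG mutants, like Loxl3. Loxl4 stood at 0.96 ± 0.30 (SE), Loxl2 at 0.54 ± 0.16, Lox at 0.29 ± 0.11 and Loxl1 at 0.18 ± 0.19, and both mutants lay above both wild types for all but Loxl1, that is for 3 of 4, beside 23.2% of all genes. Loxl4 was scattered in CG mutants, at 2109 ± 1095 CPM (SD, n = 2), beside 1084 ± 162 CPM in CG wild types. Without CG mutant replicate 1 the median of the 4 genes went from 0.42 to 0.30. Among CT mutants Loxl4 was at 0.39, Loxl2 at 0.03, Lox at -0.19 and Loxl1 at -0.23. None passed edgeR's test in either line.

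Around Tgfbr1 and Smad3, 9 of 16 pathway genes were below 0 in the CG line and 6 of 16 in the CT line. The ligand gene Tgfb1 stood at 0.57 ± 0.11 (SE; adjusted p 0.181 in edgeR's fit) in the CG line, and the co-receptor gene Tgfbr3 at -0.29 ± 0.13 (SE). Tgfb3, another ligand gene, stood in the CT line at 0.40 ± 0.19 (SE) and the inhibitory Smad7 at 0.17 ± 0.09 (SE). Among the 11 partners of Hdac4, 8 were below 0 in each line. The CT count rested on 1 library: without CT wild type replicate 1 it was 3 of 11, and the median went from -0.06 to 0.09. Ihh, the hedgehog ligand of prehypertrophic cells, stood at -1.19 ± 0.38 (SE) and Hdac9 at 0.54 ± 0.20 (SE) in the CG line. Ihh levels were low, with means of 1.77 CPM in CG wild types and 0.77 CPM in CG mutants. For CT mutants Hdac5 stood at -0.45 ± 0.14 (SE) and Col10a1, the collagen of hypertrophic cartilage, at 0.25 ± 0.18 (SE). None of these partners passed the test.

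For the growth factors and the chemokine the lists were short. Of 9 VEGF ligands and receptors, 8 were below 0 in the CG line, with a median of -0.23 that was 0.09 without CG mutant replicate 1, and 4 in the CT line. Nrp2, a co-receptor, stood at -0.78 ± 0.22 (SE) and the ligand gene Vegfc at -1.12 ± 0.54 (SE) in the CG line. Vegfc levels were low, with means of 1.62 CPM in CG wild types and 0.74 CPM in CG mutants. The receptor gene Flt4 stood in the CT line at 0.42 ± 0.23 (SE) and the ligand gene Vegfd at -0.80 ± 0.56 (SE). Mean Vegfd levels were only 0.38 CPM in CT wild types and 0.22 CPM in CT mutants. Among 6 PDGF genes, 4 were below 0 in the CG line and 3 in the CT line. Their CG median was -0.41, and it was -0.0075 without CG mutant replicate 1. Pdgfrl, a receptor-like gene, stood at -0.71 ± 0.14 (SE) in the CG line and at -0.43 ± 0.14 (SE) in the CT line, with both mutants below both wild types each time. Pdgfa was at 0.20 in the CG line and Pdgfd at 0.93 ± 0.55 (SE) in the CT line. Pdgfd levels were very low there, with means of 0.17 CPM in wild types and 0.33 CPM in mutants. The receptors of Cxcl12 stood at -0.23 (Ackr3) and -0.20 (Cxcr4) in the CG line and at 0.28 and -0.24 in the CT line, and none passed the test. Without CG mutant replicate 1 neither was below 0 in the CG line, and their median there went from -0.21 to 0.21.

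Of 9 further reported targets of the same arm that could be tested, 8 were below 0 in the CG line and 4 in the CT line. The shares over all genes were 49.4% and 50.6%. Without CG mutant replicate 1 the CG count was 6 of 9, and the median went from -0.15 to -0.24. That count was 7 of 9 when each of the other CG libraries was left out. Sox4, a transcription factor gene, stood at -0.55 ± 0.13 (SE; adjusted p 0.244 in edgeR's fit) and Mmp13, the collagenase of hypertrophic cartilage, at -0.89 ± 0.39 (SE) in CG mutants. In CT mutants the innate receptor gene Tlr4 stood at 0.31 ± 0.11 (SE) and the DNA methyltransferase gene Dnmt1 at 0.21 ± 0.14 (SE). Fgf9 had too few reads for a test. Of 6 SP and KLF factors around Sp1, 3 were below 0 in each line, with Klf6 at -0.17 and Klf4 at -0.11 in the CG line and Klf5 at -0.35 and Klf6 at 0.16 in the CT line. The CT count was 5 of 6 without CT wild type replicate 2. Of 9 aminopeptidases around Dnpep, 6 were below 0 in the CG line, with Lnpep at -0.32 and Metap1 at -0.15. Without CG mutant replicate 1 that count was 4 of 9, and the median went from -0.15 to 0.02. CT mutants had 4 of the 9 below 0, with Metap2 at 0.10 and Erap1 at 0.13.

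Markers of other cell types also stood apart in CG mutant replicate 1. Its macrophage and leukocyte markers (12 of 12 found, with C1qa and C1qb at 0 in at least 1 of the 8 libraries) summed to 333.4 CPM, beside 471.5 in the other mutant and 568 and 485 in the wild types. Its endothelial markers summed to 14.1 CPM, beside 30.3 to 40.7 CPM in the other CG libraries. The median distance of the 10 genes from the mean of their own wild types was -0.30 on the log2 scale in this library and 0.02 in CG mutant replicate 2. The same distance in the CT line was -0.06 and -0.09 in the mutants, and it was 0.13 in wild type replicate 1 and -0.13 in wild type replicate 2. CT wild types also differed from CT mutants in neutrophil and erythroid markers, without overlap. Macrophage and leukocyte markers overlapped there, at 361.9 and 324.5 CPM in CT wild types and 370.6 and 342.2 CPM in CT mutants. Neutrophil markers (7 of 7 found) summed to 202 and 140.8 CPM in CT wild types and to 61.9 and 78.1 CPM in CT mutants, beside 9.27 to 21.7 CPM in the CG line. Erythroid markers summed to 2691 and 1576 CPM in CT wild types and to 999.1 and 1405 CPM in CT mutants. The part of other cells in the values of the 10 genes was not tested.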

How the data were processed

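Chondrocyte RNA of 8 libraries was analysed. Reads were aligned with HISAT2 2.0.4 to mm9, per the submitters' processing notes, while no source used here names the read counter, its annotation or its use of strand. Per the file headers, the authors' table holds a read count and an FPKM for each gene in each library. These deposited values are estimated counts: between 2282 and 2518 genes per library had a fractional value, which was rounded. The authors deposited log2 ratios and q-values in a second table, used only where named. A further table with 3 of the libraries repeated these values and was not used.

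edgeR 4.0.16 (R 4.3.3) was fitted once over 4 groups of 2, with TMM scaling, the default low-count filter and p-values adjusted over 14359 genes. Intervals are 95%. The threshold was an adjusted p of 0.05. DESeq2 1.42.0, other scalings, no filter, separate fits, a replicate block, limma 3.58.1 on deposited FPKM after adding 1 or 0.1 and log2 transformation, and leaving out each library were the alternatives. Fits were tested on simulated data. Seed motifs were searched in the longest 3′ UTR of at least 50 bases per Entrez ID in GENCODE M21, and no coordinates are given because the builds differ. The RefSeq table used here has no separate entry for the mature 5p arm.

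All 10 genes are named with every library's value, and of each pathway list the genes with the 2 smallest p-values in each line (all members of lists of up to 4). The 10 genes, the lists and the rule were chosen with earlier results of these data known, among them small unadjusted p-values of some of the 10. Which libraries to leave out of list medians, and the 6-base match, were added after the data were seen.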

Additional observations from a re-analysis of the deposited data

How the results depend on the processing

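Under every alternative that kept both libraries of each compared group, no call changed for any of the 10 genes in either mutant comparison. Nor did one change in the difference between the lines. Counts over all genes moved more. DESeq2 called 216 genes for CG, 20 for CT and 38 for the difference between the lines. Between wild types it called 4 of the 10, beside 4474 of all 14359 genes. Without a low-count filter edgeR called 13, 2 and 5 genes. Fits of the compared groups alone called 3 genes for CT. Between wild types they called 5 of the 10, beside 4911 of 14076 genes. limma on log2(FPKM + 1) called 4 genes for CG and 3 for CT, and limma on log2(FPKM + 0.1) 3 for CG. Between wild types each called 1 of the 10, beside 4815 and 4799 of all 14359 genes. The replicate block called 4 genes for CT and 6 for the difference between the lines and none of the 10. Same-numbered libraries deviated together with r = -0.089 (CG) and 0.25 (CT) over only 2 numbers, so the numbers were not treated as pairs. On log2(FPKM + 1) and log2(FPKM + 0.1) the sign turned for Pdgfra in CT (0.0129 and 0.0133), Hdac4 between the lines (-0.0351 and -0.0331) and Tgfbr1 between wild types (0.0658 and 0.0712). With the latter scale the median of all genes between wild types moved to 0.126, above the Tgfbr1 value. The median of genes with a 5p seed match was -0.0442 and -0.0703 for CG and 0.0217 and 0.0279 for CT on these scales, beside -0.03 and -0.0456, and 0.0257 and 0.0351, over all genes tested; with 8-base matches it was -0.0492 for CG. With 6-base matches to the 5p seed all 10 genes held one.

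Leaving out 1 library gave 1 to 522 genes for CG (522 without CG mutant replicate 2), 0 to 4 for CT, 1 to 97 for the difference between the lines and 2137 to 5324 between wild types, and 0 to 1 of the 10 for CG and 1 to 5 of the 10 between wild types. The median of the 10 ran from -0.296 to 0.0203 for CG and from -0.14 to -0.0478 for CT, and the median of genes with a 5p seed match from -0.033 to -0.011 for CG and from -0.0266 to 0.0197 for CT. Signs turned for Cxcl12 in CG (-0.998 to 0.117) and CT (-0.0514 to 0.784), Dnpep in CG (-0.0356 to 0.211), Loxl3 in CT (-0.131 to 0.232), Pdgfra in CG (-0.811 to 0.156) and CT (-0.132 to 0.0788), Smad3 in CT (-0.339 to 0.0133), Sp1 in CT (-0.194 to 0.0814), Tgfbr1 in CT (-0.0851 to 0.164) and between wild types (-0.177 to 0.0716), and Vegfa in CG (-0.275 to 0.0751). For the difference between the lines they turned for Hdac4 (-0.087 to 0.195), Nfe2l2 (-0.283 to 0.0858), Pdgfra (-0.782 to 0.184), Smad3 (-0.488 to 0.122) and Vegfa (-0.0317 to 0.626). The cause was not tested. Precision is limited by 2 libraries a group, and Cxcl12, the gene with the fewest reads of the 10, had the widest intervals.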
